A study of Mus musculus with 12 samples.

Results

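Notch pathway RNA in 3T3 mouse fibroblasts was described through 10 genes: the receptors Notch1, Notch2 and Notch3, the ligands Jag1 and Jag2, and the genes Hes1, Hey1, Hey2, Heyl and Nrarp, which are known as targets of the pathway. They were picked by symbol from a table of 32544 gene rows, which held all 10, and 8 of them passed the filter on low counts that left 14279 genes to test. After vesicles from CRIPTO-overexpressing donor cells, RNA of all 3 receptors fell, Notch3 most, at 12.3-fold lower than in untreated cells, while Hes1 rose 3.92-fold. Hey2 had 38 to 60 counts a library there and 1 to 7 in every other library. After vesicles from CRIPTO-knockdown donor cells, Hes1 fell 3.15-fold and Notch1 rose 1.37-fold.

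Notch receptors sit at the cell surface and are cut after a ligand of the Jagged or Delta-like family on a neighbouring cell binds them. The freed inner part of the receptor moves to the nucleus, joins the DNA-binding protein RBPJ and coactivators of the Mastermind family, and turns on genes such as Hes1 and the Hey genes, which encode transcriptional repressors, and Nrarp, which encodes a feedback inhibitor. In fibroblasts and other connective tissue cells the pathway is known for roles in differentiation and in the response to injury.

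The recipient cells of all 12 libraries were 3T3, an established fibroblast line, and each of the 4 groups had 3 libraries. One group was untreated. The others had received, for 24 h, extracellular vesicles (EVs, small membrane-bound particles that cells shed) of MDA-MB-468, a human breast cancer line, and the donor cells carried a control construct (shCon), a knockdown of CRIPTO (shCr) or CRIPTO overexpression (CrOE). CRIPTO is a cell-surface co-receptor of the TGF-beta family. The EV dose, and whether a donor line was 1 clone or a pool, are not given in the sources used here. Nothing states that the libraries of a group came from separate cultures, so p-values measure the spread between these libraries, which may be technical. The table names the CrOE columns only by the protein, and they were assigned by elimination because the knockdown has columns of its own, so every CrOE value rests on that step.

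Estimated counts per library ran from 25960054 to 37774020, and 3 counts, taken as the detection floor, corresponded to 0.0795 to 0.114 CPM, the count of a gene scaled to a fixed library total with TMM factors. Of 10 fibroblast markers, all 10 were above the floor in every untreated, shCon EV and shCr EV library and 9 in every CrOE EV library, where Lum was at the floor. Their summed level was 16109 to 17158 CPM in untreated cells, 17721 to 17888 with shCon EVs, 12809 to 14212 with shCr EVs and 4812 to 4995 with CrOE EVs. Epcam (epithelial), Cd3e (T cells) and Adipoq (adipocytes) were at or below the floor in every library. The summed level of the 7 epithelial markers was 0.549 to 0.736 CPM in untreated cells and 1.99 to 2.82 with CrOE EVs. For 5 endothelial markers it went from 0.625 to 0.952 CPM up to 2.47 to 2.62, for 5 mural markers from 1.32 to 1.91 down to 0.507 to 0.983, for 5 immune markers from 4.65 to 7.78 down to 2.68 to 3.57 and for 4 adipocyte markers from 21.4 to 26.8 down to 1.74 to 2.13. From untreated cells to CrOE EVs, the mural, immune and adipocyte shifts lean on single genes. By mean CPM, Des went from 0.873 to 0.127, Cd68 from 5.64 to 3.05 and Fabp4 from 24.2 to 1.80. In the epithelial sum, Cldn4 rose most, from 0 to 1.15, and Krt18 from 0.346 to 0.849. The endothelial rise was spread over Tek (0.223 to 1.18), Pecam1 (0.286 to 0.648), Kdr (0.136 to 0.403) and Cdh5 (0.0616 to 0.187). Tie1 hardly moved (0.111 to 0.112). The endothelial sum was also higher with shCon (1.23 to 1.30 CPM) and shCr EVs (1.03 to 1.64) than in any untreated library. Against their sums went Krt5 (0.149 to 0.0423), Cdh1 (0.137 to 0.0870), Myh11 (0.320 to 0.486) and Plin1 (0.0748 to 0.173). The part of these shifts in the Notch results was not tested. In bulk RNA, fewer cells that express a gene and less RNA of it per cell cannot be told apart.

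Per kilobase of exon, which allows genes to be compared with each other, Notch2 was the most abundant of the 10 in every group, at 15.2 CPM per kb in untreated cells and 9.45 with CrOE EVs. In untreated cells Jag1 (3.70) and Notch3 (3.40) followed, with overlapping libraries, and then Hes1 (1.17) and Notch1 (1.07), which overlapped as well. Hey1, Jag2, Hey2 and Nrarp were at 0.107 CPM per kb or less, and Heyl had no count. With CrOE EVs the order was Notch2, Hes1 (4.60), Jag1 (2.93), Hey2 (0.312), Notch3 (0.277) and Notch1 (0.264), and the libraries of Hey2 overlapped those of Notch3, as did those of Notch3 and Notch1. Hes1 thus moved from the fourth place to the second, and Notch3 from the third to the fifth. With the longest transcript as the length, Notch3 and Notch1 changed places in the CrOE EV order.

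Promoter sequence, 250 bases before to 50 after the start of the gene, was given by RefSeq (GRCm38.p6) for 7 of the 10 genes, with no entry for Hes1, Hey1 or Heyl. The windows were searched on both strands for TGGGAA, the core of the site bound by RBPJ, for the longer GTGGGAA that contains it, and for CACGTG, an E-box of the kind that bHLH proteins bind. Hey2 is shown because it stood highest over untreated cells with CrOE EVs among the members and was the only one of the 7 with GTGGGAA, and Notch3 because it had the largest fall. Capitals mark GTGGGAA or its reverse complement.
Hey2: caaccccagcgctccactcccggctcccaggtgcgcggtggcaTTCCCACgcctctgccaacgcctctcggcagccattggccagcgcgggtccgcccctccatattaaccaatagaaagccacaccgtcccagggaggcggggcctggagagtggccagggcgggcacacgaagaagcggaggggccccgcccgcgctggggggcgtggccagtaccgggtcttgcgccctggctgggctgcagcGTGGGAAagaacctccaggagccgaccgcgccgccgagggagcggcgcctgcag
Notch3: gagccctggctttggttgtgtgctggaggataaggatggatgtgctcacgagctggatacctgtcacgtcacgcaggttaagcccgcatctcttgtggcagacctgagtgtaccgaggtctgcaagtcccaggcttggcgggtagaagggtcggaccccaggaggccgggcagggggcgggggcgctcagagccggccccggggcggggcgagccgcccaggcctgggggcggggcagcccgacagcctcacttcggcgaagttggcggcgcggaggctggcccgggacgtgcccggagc
The Hey2 window (chr10:30842734-30843033, minus strand, GRCm38.p6) held GTGGGAA 2 times, once on the gene's strand from 4 bases before the start and once on the other strand from 207 bases before it. The Notch3 window (chr17:32166841-32167140, minus strand) held none of the 3 motifs. Among 20019 promoter windows of genes in the table, 24.6% held TGGGAA, 6.29% GTGGGAA and 7.88% CACGTG. Of the other windows, those of Notch1, Notch2, Jag1 and Jag2 held no match, and that of Nrarp held 1 CACGTG. A match describes the letters in this window only. No coordinate of this build was set against the submitters' mapping, which was to mm39.

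Comparisons with untreated cells ask what the EVs changed, and those between EV groups whether it made a difference if the donor cells had more or less CRIPTO. The 4 groups hold no separate control construct for the overexpression. CrOE EVs thus differ from shCon and shCr EVs in the kind of donor construct as well as in CRIPTO, and the parts of these cannot be told apart. Differences were tested with edgeR's quasi-likelihood test, and a call is a p-value adjusted over all 14279 genes of under 0.05. Any difference among the 4 groups was called for 7 of the 8 tested members, all but Jag2 (adjusted p = 0.128, edgeR), and for 81.3% of all genes. Against untreated cells, shCon EVs gave 3 calls among the members (38.1% of all genes), 1 higher (18%) and 2 lower (20.2%). There were 4 calls for shCr EVs (37.3% of all genes), 1 higher (18.4%) and 3 lower (18.8%). CrOE EVs gave 7 calls (73.7% of all genes), 3 higher (36.7%) and 4 lower (37%). Between shCr and shCon EVs 3 members were called (8.73% of all genes), 1 higher (5.22%) and 2 lower (3.51%). The 1247 genes behind that share became 688, 632 and 666 without shCon replicate 1, 2 and 3 and 641 in a fit of only these 2 groups. CrOE EVs against shCon EVs gave 6 calls (72.6% of all genes), 3 higher (36.5%) and 3 lower (36.1%). For CrOE EVs against shCr EVs there were 7 (73.9%), 3 higher (36.9%) and 4 lower (37%). In the comparisons with CrOE EVs most genes were called, as were most members. Only Notch1, Notch2, Notch3, Jag1 and Hes1 were past the low-count filter in every library. Every library of a group was past this filter only with shCr EVs for Jag2 and only with CrOE EVs for Hey1 and Hey2. In all, 7 libraries were past it for Jag2, 6 for Hey1 and 3 for Hey2. Hey2 was thus kept only through its CrOE EV libraries and was bound to be high there. The counts above lean on Jag2, Hey1 and Hey2 as well. Of the 5 members measured throughout, 1 was called higher (Hes1) and 4 lower with CrOE EVs against untreated cells. For these 5 the median log2 fold change against untreated cells was -0.15 with shCon EVs, 0.00093 with shCr EVs and -0.69 with CrOE EVs. Over all genes the medians were 0.0069, 0.020 and 0.0078, with SDs between genes of 0.59, 0.60 and 1.45.

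**Figure D1:**
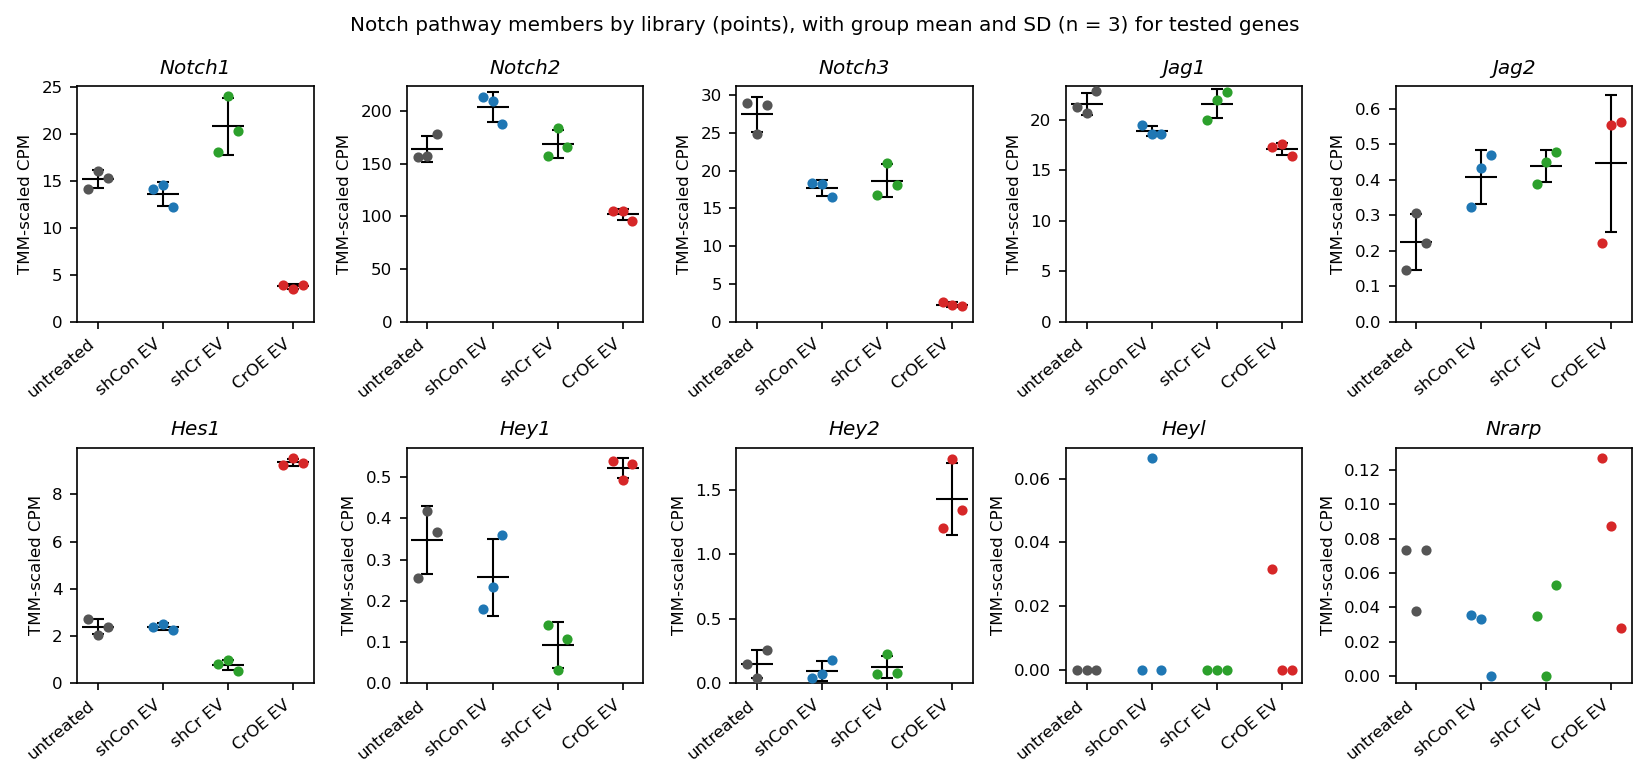
TMM-scaled CPM (vertical axes, linear, each with its own range) of the 10 genes in the 12 libraries, by group, with mean and SD of 3 libraries for the tested genes. The CrOE EV points lie lowest for Notch1, Notch2, Notch3 and Jag1 and highest for Hes1 and Hey2, and the shCr EV points lie lowest for Hes1 and Hey1.

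Notch3, a receptor known from smooth muscle and other mural cells, was at 29.0, 24.9 and 28.7 CPM in the untreated libraries, 18.4, 18.3 and 16.5 with shCon EVs, 16.8, 21.1 and 18.2 with shCr EVs and 2.57, 2.15 and 1.99 with CrOE EVs. Every EV library lay below every untreated one, and the CrOE EV libraries lay far below the rest. Notch3 fell 1.55-fold with shCon EVs (log2 fold change -0.64, SE 0.10, adjusted p = 0.000291, edgeR) and 1.47-fold with shCr EVs (-0.56, SE 0.099, adjusted p = 0.000688). The fall with CrOE EVs had a log2 fold change of -3.62 (SE 0.12, adjusted p = 2.3e-11, edgeR). For shCr against shCon EVs Notch3 was not called (log2 fold change 0.078, SE 0.10, adjusted p = 0.712, edgeR). Of the 5 mural markers, 1 was above the floor in every CrOE EV library and 2 in every untreated one, and Rgs5 and Kcnj8 were at the floor with CrOE EVs. Rgs5 was also at the floor with shCon EVs, Kcnj8 with shCr EVs, and Cspg4 in untreated cells and with shCon EVs. From untreated cells to CrOE EVs, the mean of Des went from 0.873 to 0.127 CPM and that of Myh11 from 0.320 to 0.486. The part of the lower summed level of the 5 mural markers in the fall of Notch3 was not tested.

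Notch1, the best studied of these receptors, stood at 14.1, 16.0 and 15.3 CPM in untreated cells, 14.1, 14.6 and 12.2 with shCon EVs, 18.0, 24.1 and 20.3 with shCr EVs and 3.90, 3.43 and 3.93 with CrOE EVs. Here the shCr EV libraries were above, and the CrOE EV libraries below, all others. Notch1 rose with shCr EVs, both against untreated cells (log2 fold change 0.46, SE 0.11, adjusted p = 0.00481, edgeR) and against shCon EVs (0.61, SE 0.11, adjusted p = 0.00384). It fell with CrOE EVs against untreated cells (log2 fold change -2.01, SE 0.12, adjusted p = 6.9e-09, edgeR), or 4.03-fold. Against shCon and shCr EVs the CrOE EV level was 3.63-fold and 5.54-fold lower. With shCon EVs no change against untreated cells was called (log2 fold change -0.15, SE 0.11, adjusted p = 0.297, edgeR).

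Notch2, the most abundant of the receptors, measured 156, 158 and 178 CPM in untreated cells, 214, 209.7 and 188 with shCon EVs, 157, 184 and 166 with shCr EVs and 105, 105 and 96.0 with CrOE EVs. It was highest with shCon EVs and lowest with CrOE EVs, and the shCr EV libraries overlapped the untreated ones (log2 fold change 0.043, adjusted p = 0.688, edgeR). Notch2 rose 1.24-fold with shCon EVs (log2 fold change 0.31, SE 0.075, adjusted p = 0.00567, edgeR) and fell 1.61-fold with CrOE EVs (-0.69, SE 0.076, adjusted p = 2.9e-06). With shCr EVs it was lower than with shCon EVs (log2 fold change -0.27, SE 0.075, adjusted p = 0.0443, edgeR). This call was lost without any 1 of 8 libraries: untreated replicate 1 (adjusted p = 0.0571), shCon replicate 1 (0.153) or 2 (0.159), shCr replicate 1 (0.0761) or 3 (0.0929), and CrOE replicate 1 (0.0622), 2 (0.0616) or 3 (0.0529). It was also no call in a fit of only these 2 groups (adjusted p = 0.109) or without the 3 CrOE libraries (0.0783).

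Strand use in the counting is not stated, and exons of genes on the opposite strand cover 7.50% and 2.91% of the exon bases of Notch1 and 6.03% of those of Notch3, so reads of those stretches cannot be assigned with certainty. In transcript sequence, 9.40%, 4.28% and 6.59% of the 31-base stretches of Notch1, Notch2 and Notch3 occur in another gene on either strand. The genes that share most with Notch1 and Notch3 are among these opposite-strand neighbours. For Notch2 it is Gm42820, which covers 5.02% of its exon bases on the same strand. Jag1, Hes1, Hey1, Hey2 and Heyl share none.

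**Figure D2:**
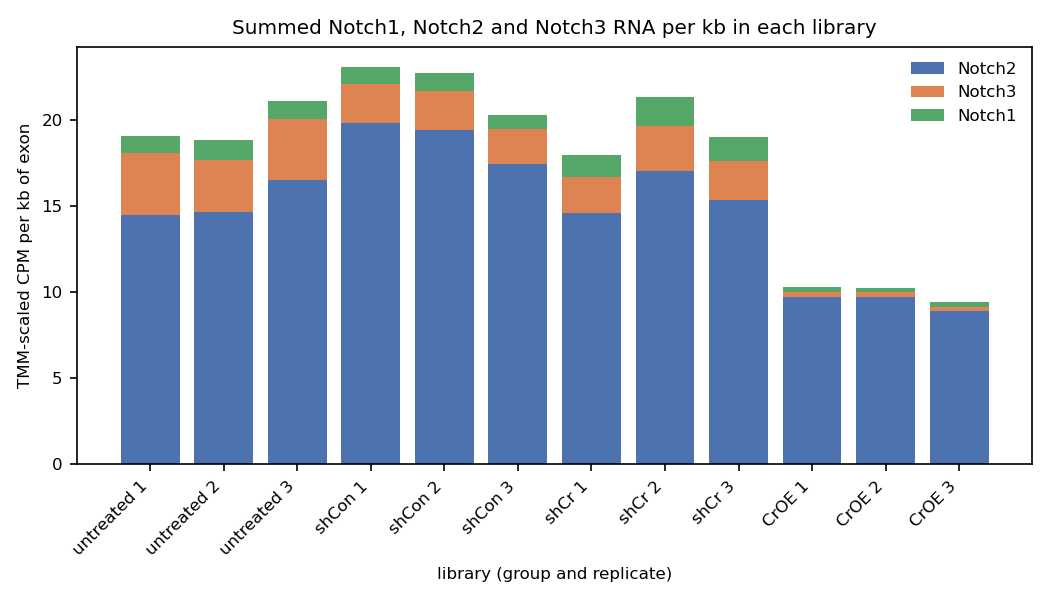
Stacked bars of Notch2, Notch3 and Notch1 in TMM-scaled CPM per kb of exon (vertical axis, from 0) in each of the 12 libraries. The CrOE EV bars are the shortest and consist almost wholly of Notch2.

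Summed over the 3 receptors, the level per kb was 19.7 ± 1.27 CPM (SD, n = 3) in untreated cells, 22.1 ± 1.51 with shCon EVs, 19.4 ± 1.73 with shCr EVs and 9.99 ± 0.487 with CrOE EVs. Notch2 made up 77.3 ± 1.12% of that sum in untreated cells, 85.7 ± 0.169% with shCon EVs, 80.6 ± 0.740% with shCr EVs and 94.6 ± 0.412% with CrOE EVs. Notch3 went from 17.3 ± 1.32% in untreated cells to 9.94 ± 0.106%, 11.9 ± 0.311% and 2.77 ± 0.276% in the same order, and Notch1 from 5.43 ± 0.489% to 4.33 ± 0.152%, 7.49 ± 0.435% and 2.65 ± 0.288%. The libraries with CrOE EVs thus held the lowest sum and the highest Notch2 share. These shares are a description of the same counts and were not tested.

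Jag1, a ligand of the Jagged family, moved little. It was at 21.3, 20.7 and 22.8 CPM in untreated cells, 19.4, 18.6 and 18.6 with shCon EVs, 20.0, 22.0 and 22.8 with shCr EVs and 17.3, 17.6 and 16.4 with CrOE EVs. The CrOE EV libraries were the lowest, and those of shCr EVs overlapped the untreated ones. Jag1 fell 1.26-fold with CrOE EVs against untreated cells (log2 fold change -0.34, SE 0.068, adjusted p = 0.000586, edgeR), and the difference from shCr EVs was of the same size (-0.34, adjusted p = 0.000537). A smaller fall was called with shCon EVs (log2 fold change -0.19, SE 0.068, adjusted p = 0.0400, edgeR). That call was lost without any 1 of 7 libraries: untreated replicate 1 (adjusted p = 0.0650) or 3 (0.144), shCon replicate 1 (0.0622), 2 (0.113) or 3 (0.109), shCr replicate 2 (0.0507) or CrOE replicate 1 (0.0531). It was also lost without a low-count filter (adjusted p = 0.114) and with the 3 CrOE libraries out of the fit (0.0577). Between CrOE and shCon EVs Jag1 was no call (log2 fold change -0.14, adjusted p = 0.0760, edgeR), but it was one without shCr replicate 1 (adjusted p = 0.0334), with a filter of 10 counts in every library (0.0331) and in a fit of only these 2 groups (0.0124). For shCr against shCon EVs it was no call either (0.19, adjusted p = 0.101), but one without shCr replicate 1 (0.0291).

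Jag2, the other Jagged ligand, was close to the floor, with 4 to 20 counts a library. Its levels were 0.146, 0.305 and 0.221 CPM in untreated cells, 0.322, 0.432 and 0.468 with shCon EVs, 0.388, 0.449 and 0.477 with shCr EVs and 0.222, 0.553 and 0.562 with CrOE EVs. Libraries with shCon and shCr EVs lay above the untreated ones, and those with CrOE EVs overlapped them. The rise with CrOE EVs was called (log2 fold change 1.00, SE 0.41, adjusted p = 0.0403, edgeR), and the differences with shCon EVs (0.86, SE 0.42, adjusted p = 0.130) and shCr EVs (0.97, SE 0.41, adjusted p = 0.0837) were not. The CrOE EV call did not hold with DESeq2 (adjusted p = 0.0893) or without a low-count filter (0.0684). Leaving out 1 library ended it for untreated replicate 1 (adjusted p = 0.146) or 3 (0.0918), shCon replicate 2 (0.0532) or 3 (0.0515), shCr replicate 2 (0.0527) or 3 (0.0512) and CrOE replicate 2 (0.127) or 3 (0.139). The shCr EV difference became a call without CrOE replicate 1 (adjusted p = 0.0397).

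Hes1, the repressor most often read as a target of Notch, had 2.71, 2.06 and 2.39 CPM in untreated cells, 2.40, 2.52 and 2.23 with shCon EVs, 0.811, 0.961 and 0.530 with shCr EVs and 9.26, 9.54 and 9.32 with CrOE EVs. Untreated and shCon EV libraries overlapped, all shCr EV libraries were below them and all CrOE EV libraries above. With shCr EVs Hes1 fell against untreated cells (log2 fold change -1.65, SE 0.19, adjusted p = 1.9e-05, edgeR) and against shCon EVs (-1.65, SE 0.19, adjusted p = 0.000159). With CrOE EVs it rose against untreated cells (log2 fold change 1.97, SE 0.15, adjusted p = 5.6e-08, edgeR) and against shCon EVs (1.97, SE 0.15, adjusted p = 5.8e-08). The distance between CrOE and shCr EVs was 12.3-fold (log2 fold change 3.63, SE 0.17, adjusted p = 4.9e-10, edgeR). With shCon EVs no difference from untreated cells was called (log2 fold change -0.0011, SE 0.16, adjusted p = 0.997, edgeR). Each of these 5 calls held with every library left out in turn. Those that do not involve CrOE EVs also held with the 3 CrOE libraries out of the fit, an alternative chosen after the data were seen (adjusted p = 0.000259 and 0.00184).

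Hey1, a repressor related to Hes1, was found in 1 to 19 counts a library. Its levels were 0.256, 0.419 and 0.368 CPM in untreated cells, 0.179, 0.232 and 0.360 with shCon EVs, 0.141, 0.0320 and 0.106 with shCr EVs and 0.539, 0.495 and 0.534 with CrOE EVs. As with Hes1, the shCr EV libraries were the lowest and the CrOE EV libraries the highest, with no overlap with any other group. Hey1 fell with shCr EVs against untreated cells (log2 fold change -1.86, SE 0.46, adjusted p = 0.00648, edgeR), and the difference from shCon EVs was no call (-1.43, SE 0.48, adjusted p = 0.0913). Past the low-count filter were 6 libraries of Hey1, and only with CrOE EVs was every library of the group past it. With CrOE EVs Hey1 was higher than with shCr EVs (log2 fold change 2.45, SE 0.42, adjusted p = 0.000152, edgeR) and shCon EVs (1.01, SE 0.35, adjusted p = 0.0209), but no call against untreated cells (0.58, SE 0.34, adjusted p = 0.139). The call against shCon EVs was lost with DESeq2 (adjusted p = 0.0713), without a low-count filter (0.0525) and without shCon replicate 1 (0.0907) or 2 (0.0696).

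Hey2, the third repressor of this kind, had 1 to 7 counts in each library of the untreated, shCon EV and shCr EV groups and 38 to 60 with CrOE EVs. In CPM this was 0.146, 0.0381 and 0.258 in untreated cells, 0.0358, 0.0664 and 0.180 with shCon EVs, 0.0705, 0.224 and 0.0795 with shCr EVs and 1.21, 1.75 and 1.35 with CrOE EVs. The CrOE EV libraries stood apart, and the other 3 groups overlapped one another. Because Hey2 was kept for testing only through its CrOE EV libraries, its differences there are given as values: a log2 fold change of 3.24 (SE 0.47) against untreated cells, 3.88 (SE 0.51) against shCon EVs and 3.49 (SE 0.47) against shCr EVs. The size is not firm, since these log2 fold changes became 3.88 without untreated replicate 3, 4.69 without shCon replicate 3 and 4.17 without shCr replicate 2. No change was called with shCon EVs (log2 fold change -0.65, SE 0.74, adjusted p = 0.528, edgeR) or shCr EVs (-0.26, SE 0.68, adjusted p = 0.800) against untreated cells. With 1 library left out these ran from -1.45 to -0.00047 and from -0.94 to 0.39, so single libraries set their size.

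Heyl had 0 counts in 10 of the 12 libraries, 2 in shCon replicate 2 and 1 in CrOE replicate 1. Nrarp had 5 counts in all over the untreated libraries, 2 over those of shCon EVs, 3 over shCr EVs and 8 over CrOE EVs, where 1 library reached 4. Neither gene was tested, and no difference was detectable at this depth. Exons of a gene on the opposite strand cover 79.4% of the exon bases of Nrarp, so even these counts may not be its own. Of the 5 targets, Hes1 alone was therefore measured with more than 60 counts in any library.

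**Figure D3:**
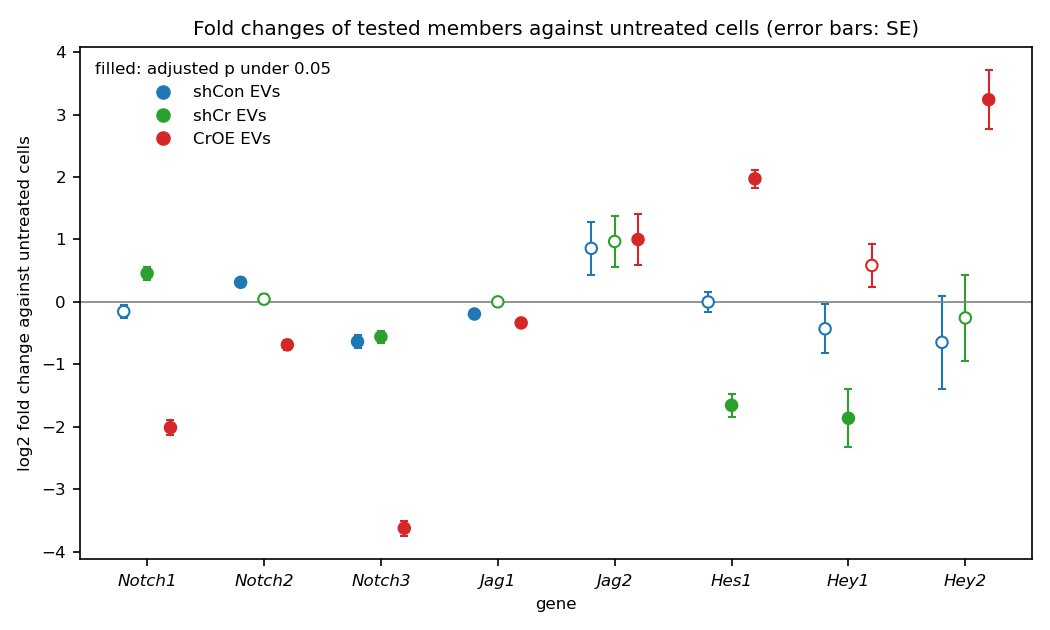
Log2 fold change against untreated cells (vertical axis) of the 8 tested genes with shCon, shCr and CrOE EVs, with SE as error bars and filled points for adjusted p under 0.05. With CrOE EVs the receptors and Jag1 lie below 0 and Hes1 and Hey2 above it, and with shCr EVs Hes1 and Hey1 lie below 0.

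Notch1 and Hes1 were ordered in opposite ways over the EV groups. From shCr EVs through shCon EVs to CrOE EVs, Notch1 went from 20.8 ± 3.05 through 13.6 ± 1.27 to 3.75 ± 0.279 CPM (SD, n = 3), whereas Hes1 went from 0.767 ± 0.219 through 2.38 ± 0.145 to 9.38 ± 0.148 CPM. The means of Hey1 were 0.0930 ± 0.0556, 0.257 ± 0.0932 and 0.522 ± 0.0243 CPM, with the first step no call and the call of the second lost with DESeq2. Notch2 had its highest mean with shCon EVs, at 169 ± 13.5, 204 ± 13.9 and 102 ± 5.08 CPM in the same order. Notch3 separated CrOE EVs from the rest, with shCr and shCon EVs not called apart. Hey2 was high with CrOE EVs, but it was kept for testing only through those libraries. Its 1 to 7 counts in the others are too few to set shCr against shCon EVs. These comparisons share libraries, so the orders are not independent of each other.

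Genes with the most similar pattern over the 12 libraries were sought for the member of each role that differed most among the 4 groups, by Pearson's r of log2 CPM among 11564 genes. Closest to Notch3 were Tor4a (r = 0.998), Cd248 (0.997), which encodes the stromal cell surface protein endosialin, and Ptk7 (0.997), a receptor-like protein of Wnt signalling. Cd248 stood at 283 CPM in untreated cells, 174 with shCon EVs, 185 with shCr EVs and 10.8 with CrOE EVs. A total of 1175 genes had an r above 0.95 with Notch3, and all these points share the separation of the CrOE EV libraries. Closest to Jag1 were the actin regulators Fscn1 (r = 0.943) and Enah (0.939) and the gene Ssfa2 (0.935), and no gene had an r above 0.95. Closest to Hes1 were Usp22, a deubiquitinase (r = 0.980), Cdsn, which encodes corneodesmosin (0.980), and Cubn, an endocytic receptor (0.980), and 33 genes had an r above 0.95. Cdsn stood at 31.1 CPM in untreated cells, 32.9 with shCon EVs, 13.5 with shCr EVs and 76.6 with CrOE EVs.

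Of 51 other genes of the pathway, 44 were tested. Against untreated cells, 11 were called higher and 8 lower with shCon EVs, where 18% and 20.2% of all genes were. With shCr EVs 9 were higher and 5 lower (18.4% and 18.8% of all genes). With CrOE EVs it was 14 and 17 (36.7% and 37% of all genes). This left 25, 30 and 13 without a call. The median log2 fold changes of the 44 genes were 0.069, 0.069 and -0.22. Between shCr and shCon EVs 4 were higher (Dlk1, Adam17, Psenen and Maml3) and 2 lower, among them Dlk2. Of all genes, 5.22% were called higher and 3.51% lower between these 2 groups.

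**Figure D4:**
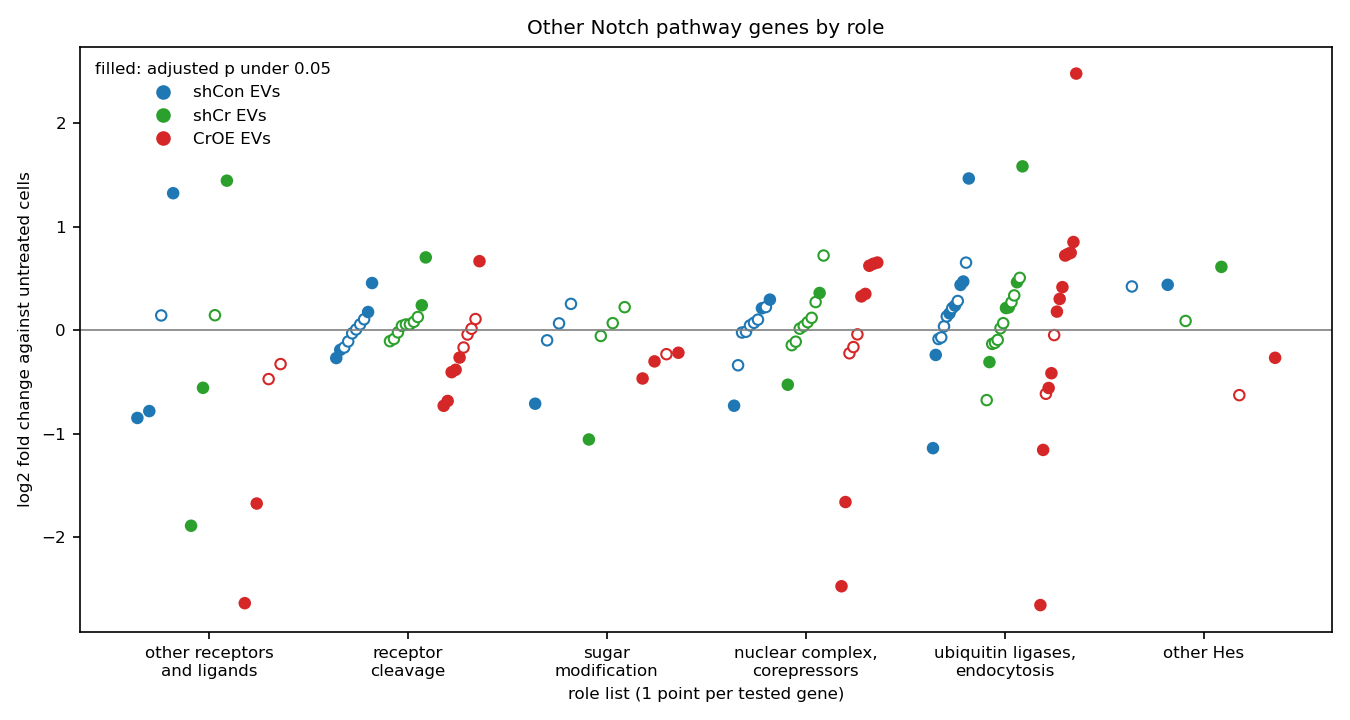
Log2 fold change against untreated cells (vertical axis) of the 44 other tested pathway genes, 1 point a gene, by role list (horizontal axis) and EV group, filled where adjusted p is under 0.05. Points of CrOE EVs spread furthest from 0, in both directions.

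Among 4 tested genes of other receptors and ligands, Dll1, a Delta-like ligand, had 0.821 ± 0.355 CPM (SD, n = 3) without EVs. It rose to 2.06 ± 0.525 with shCon EVs (by edgeR, a log2 fold change of 1.32, adjusted p = 0.00317) and to 2.23 ± 0.253 with shCr EVs (1.45, adjusted p = 0.00149). With CrOE EVs it was at 0.587 ± 0.0966 CPM, no call against untreated cells (log2 fold change -0.47, adjusted p = 0.212, edgeR) and lower than with shCon EVs (-1.80, adjusted p = 0.000109). Dlk1, a Delta-like protein that preadipocytes make, was at 294.9 ± 21.0 CPM in untreated cells and fell in all EV groups, to 172 ± 5.32 (log2 fold change -0.78), 201 ± 8.37 (-0.56) and 47.4 ± 2.86 (-2.64). Its relative Dlk2 fell as well, with log2 fold changes of -0.85, -1.89 and -1.67. Notch4 had no call against untreated cells, at 0.331 to 0.732 CPM in the untreated libraries, and Dll3, Dll4 and Dner were below the filter.

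All 10 genes of receptor cleavage were tested. With CrOE EVs 5 were called lower and 1 higher, where 37% and 36.7% of all genes were. Those that fell were the proprotein convertase Furin (log2 fold change -0.68, adjusted p = 1.2e-06, edgeR), the membrane proteases Adam10 (-0.40) and Adam17 (-0.26), and the gamma-secretase subunits Aph1b (-0.38) and Aph1c (-0.73). With shCon and shCr EVs, by contrast, Adam17 rose by 0.46 and 0.70 on the log2 scale, from 121 ± 2.81 CPM in untreated cells to 166 ± 1.54 and 197 ± 13.0. Ncstn, another gamma-secretase subunit, rose in both too (0.18 and 0.24). Furin (-0.19) and Psenen (-0.27) fell with shCon EVs. In the genes that put sugars on the receptors, Lfng, a fringe enzyme, fell with shCon (-0.71, adjusted p = 0.0137, edgeR) and shCr EVs (-1.05, adjusted p = 0.00120), and Rfng (-0.47), Pofut1 (-0.30) and Poglut1 (-0.22) with CrOE EVs. Mfng was below the filter.

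Rbpj, which encodes the DNA-binding partner of the receptors, went in opposite directions. It stood at 177, 139 and 186 CPM in untreated cells, 97.8, 103 and 102 with shCon EVs, 125, 109.8 and 115 with shCr EVs and 249, 277 and 264 with CrOE EVs. The shCon and shCr EV libraries were all below the untreated ones and the CrOE EV libraries all above. Rbpj fell with shCon EVs (log2 fold change -0.73, SE 0.093, adjusted p = 5.6e-05, edgeR) and shCr EVs (-0.53, adjusted p = 0.000655) and rose with CrOE EVs (0.65, adjusted p = 2.8e-05). For shCr against shCon EVs it was no call (0.20, adjusted p = 0.221). Maml1 (0.62), the histone acetyltransferase genes Ep300 (0.33) and Crebbp (0.35) and Spen (0.64), a corepressor that binds RBPJ, rose with CrOE EVs as well. The coactivator gene Maml3 fell there from 26.5 ± 2.29 CPM to 8.41 ± 0.497 (by edgeR, a log2 fold change of -1.66, adjusted p = 4.1e-10) and rose with shCr EVs (0.36). Rbpjl, a relative of Rbpj, fell too (-2.47, adjusted p = 0.00144), on few counts (0.458 ± 0.185 CPM in untreated cells). Maml1 (0.21) and Spen (0.30) also rose with shCon EVs, the latter with overlapping libraries.

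Among 14 ubiquitin ligase and endocytosis genes, 8 were called higher and 4 lower with CrOE EVs, where 36.7% and 37% of all genes were. Dtx1, a Deltex gene that is itself known as a Notch target, is one of the 8 but was kept for testing only through its CrOE EV libraries. It was at 0.137 ± 0.0570 CPM (SD, n = 3) without EVs and 0.780 ± 0.0475 with CrOE EVs (log2 fold change 2.48, SE 0.40). With shCon and shCr EVs Dtx1 was at 0.141 ± 0.0403 and 0.195 ± 0.112 CPM and no call. Mib1 (0.74) and Mib2 (0.85), ligases that act on the ligands, and Numb (0.30), which restrains the receptors, rose with CrOE EVs, while Numbl (-0.56), Nedd4 (-1.16), Neurl1a (-0.41) and Dtx3l (-2.66) fell. Dtx4 rose from 36.5 ± 1.56 CPM to 101 ± 2.45 with shCon EVs (by edgeR, a log2 fold change of 1.47, adjusted p = 5.6e-09) and with shCr EVs to 109 ± 5.89 (1.58, adjusted p = 2.0e-09), and by 0.18 on the log2 scale with CrOE EVs. Dtx3l also rose with shCon (0.47) and shCr EVs (0.46), and Neurl1b fell with shCon EVs (-1.14). Hes6, a relative of Hes1 that is known to oppose it, rose with shCon (0.44, adjusted p = 0.00144, edgeR) and shCr EVs (0.61, adjusted p = 0.000104) and fell with CrOE EVs (-0.27, adjusted p = 0.0142). Hes7 had no call, and Hes2, Hes3 and Hes5 were below the filter.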

How the data were processed

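Poly(A) RNA was sequenced from a directional library kit, per the labels' protocols. The deposited table gives unscaled estimated counts for each gene symbol. Its values were taken as estimated because 39.8% were not whole. The submitters' processing notes name featureCounts and mm39; their versions, the annotation and the use of strand are not given in the sources used here. In 27 rows the symbol had become a date, and none is a member.

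Counts were rounded, as the test needs whole numbers; the design had assumed plain counts, and its test was kept. filterByExpr on the 4 groups kept 14279 genes. edgeR 4.0.16 (R 4.3.3) with TMM was fitted to all 12 libraries (8 residual degrees of freedom) and tested by quasi-likelihood with Benjamini-Hochberg adjustment over all genes of a comparison. Standard errors came from the F statistic. Fold changes of genes with few counts depend on the fit's prior count. The test was checked on simulated counts in which few genes changed. That check does not cover comparisons in which most genes were called, as with CrOE EVs. Exon lengths, overlaps and shared stretches came from GENCODE M21 (GRCm38), used for lengths and neighbours only. CPM per kb used the union of exons.

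The members and lists were chosen with earlier results of these data known. The rule named all 10 members, up to 2 calls with the largest change per role list and EV group against untreated cells, and the 3 genes most like a member in each role. Other pathway genes beside counts were named after their values were seen. The settings varied were the scaling (median-of-ratios), the tool (DESeq2 1.42.0), no filter, at least 10 counts in every library, a replicate block, each library left out, only the groups compared, the longest transcript as length and, chosen after seeing the data, a fit without the CrOE libraries. PCR copies were not separated from molecules, so floors cover counting error only. Some genes are counted in the lists but not reported here by name.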

Additional observations from a re-analysis of the deposited data

How the results depend on the processing

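The number of members called stayed within 1.5 times under every alternative run. The number of all genes called between shCr and shCon EVs, 1247, became 641 in a fit of only these groups and 632 to 1396 with 1 library left out. It was 688, 632 and 666 without shCon replicate 1, 2 and 3. Median-of-ratios scaling changed the direction of no called member. Of 858 values of single members under an alternative, 790 kept direction and side of the threshold, 35 lost a call, 5 gained one and 28 changed sign, all of them without a call in either fit. The sign changes were in the log2 fold change of Hes1 between shCon EVs and untreated cells (0.0019 without a low-count filter, and -0.092 to 0.090 with 1 library left out) and of Jag1 between shCr EVs and untreated cells. The latter was -0.0050 with median-of-ratios, -0.0037 with DESeq2, -0.0053 without a filter, -0.0035 with at least 10 counts in every library, -0.0035 with only the groups compared, -0.0048 without the CrOE libraries and -0.040 to 0.049 with 1 library left out. With 1 library left out the sign also changed for shCr EVs against untreated cells in Notch2 (-0.021 to 0.100) and Hey2 (-0.94 to 0.39). For shCr against shCon EVs it did so in Notch3 (-0.016 to 0.14), Jag2 (-0.036 to 0.21) and Hey2 (-0.29 to 1.19). For CrOE EVs it did so in Jag2 against shCon EVs (-0.054 to 0.45) and shCr EVs (-0.16 to 0.34). The cause was not tested. Requiring 10 counts in every library removed Jag2, Hey1 and Hey2, which gave no value there. Same replicate numbers did not pair the libraries: deviations from group means correlated at -0.20 to 0.32 over 18 same-number pairs, and 5 of 12 libraries were closest to their own number. With the replicate number as a block, 2, 4 and 7 members were called after shCon, shCr and CrOE EVs against untreated cells and 2 between shCr and shCon EVs. The calls lost were Jag1 after shCon EVs (adjusted p = 0.0535, edgeR) and Notch2 between shCr and shCon EVs (0.0516). Depth limits Jag2, Hey1 and Hey2 and leaves Heyl and Nrarp untested. The other pathway genes were tested in 1 fit only.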
